A study of Homo sapiens with 72 samples.

Results

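The genes described here are 9 chemokines and 1 cytokine of human dermal fibroblasts: CXCL8 (interleukin-8), CXCL1, CXCL2, CXCL3, CXCL5, CXCL6, CXCL12, CCL2, CCL7 and IL6. They were picked by gene symbol, through the Ensembl identifiers of the deposited count table, with earlier results of these data known. The 10 genes are 10 of 23170 in that table. All 10 passed the filter on low counts into the test across 14259 genes. CXCL8, CXCL2, CXCL3 and CCL7 reached the level of that filter in 0, 2, 1 and 3 DMSO wells and passed it with the help of treated wells.

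Normal human dermal fibroblasts, primary cells labelled wildtype, were exposed to omaveloxolone or to its vehicle DMSO for 24 h, and the RNA of each well was counted by DRUG-seq, a pooled 3' RNA-seq method that barcodes each well of a culture plate. Omaveloxolone is a synthetic triterpenoid that activates the transcription factor NRF2 by binding its repressor KEAP1. DMSO was given to 32 wells, and each of 10 doses (0.0005, 0.002, 0.005, 0.014, 0.04, 0.12, 0.37, 1.11, 3.33 and 10 µM) to 4. Each well received 1250 cells, no group was genetically altered, and the number of donors is not given in the sources used here. The DMSO wells stood in columns 2 and 23 of the plate, and all treated wells in rows K and L, with replicates 1 and 2 in row K and replicates 3 and 4 in row L. The 4 DMSO wells that share these rows are called the row-matched controls. The labels call each well a biological replicate and do not say whether wells differed in donor, cell stock or day, so each p-value measures only the spread between wells of this experiment, which may be technical.

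Chemokines are small secreted proteins that attract leukocytes along a gradient. CXCL8, CXCL1, CXCL2, CXCL3, CXCL5 and CXCL6 bind the neutrophil receptors CXCR1 and CXCR2 and lie together in a gene cluster on chromosome 4. CCL2 and CCL7 attract monocytes through CCR2, CXCL12 retains and attracts CXCR4-bearing cells, and IL6 signals through gp130 and STAT3. In fibroblasts, the CXCR2 ligands, CCL2 and IL6 are textbook targets of NF-kB, and their mRNAs carry AU-rich elements that shorten their life, whereas CXCL12 is a product of resting stromal cells.

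The total count per well bears on every value that follows. It averaged 6656984 in DMSO (4910790 to 8685413, n = 32) and 9877920 at 0.37 µM (n = 4). The 3 highest doses were shallower, with means of 1565622, 169669 and 30831 for 1.11, 3.33 and 10 µM (n = 4 each). In bulk wells such as these, fewer cells and less RNA per cell cannot be told apart. A count of 3 in a well, the least that is told from 0 by counting error, equals 0.472 CPM in a DMSO well, where CPM is a count scaled by the size of its library. The same 3 counts equal 0.322 CPM for a well of 0.37 µM, and 2.28, 17 and 47.3 CPM for wells of 1.11, 3.33 and 10 µM. Wells of 1 group differed by far more than counting error, with a mean chi-square per gene of 17.8 to 42.1, so limits drawn from counting error alone claim too much. All 12 fibroblast markers were detected in DMSO, with a summed level of 71394 to 86358 CPM per well. At 0.37 µM all 12 fell, to a sum of 34878 to 39250 CPM. The 1.11 µM wells had a sum of 71191 to 84467 CPM, with 4 markers higher and 4 lower. VIM made up most of each sum, with a mean of 60300 CPM in DMSO, 32300 CPM at 0.37 µM and 51300 CPM at 1.11 µM. Of the macrophage markers, 9 of 10 were measured and their sum was 93.5 to 184 CPM in DMSO. It was 90.2 to 97.9 CPM in the wells of 0.37 µM, against 205 to 417 CPM in those of 1.11 µM. CD68, a lysosomal gene that fibroblasts also express, made up nearly all of it (135 ± 22.7 CPM in DMSO, SD, n = 32), while PTPRC, the pan-leukocyte marker, was at 0 in 30 of 32 DMSO wells, had up to 51 counts at 0.37 µM and was at 0 in all 4 wells at 1.11 µM. In DMSO, 0.37 µM and 1.11 µM wells, neutrophil markers summed to at most 6.87, 0.307 and 15.7 CPM, and lymphocyte markers to at most 3.28, 0.102 and 1.36 CPM. The part of these marker levels in the chemokine values was not tested.

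RefSeq promoter windows (250 bases before the transcription start, GRCh38.p14) were matched for 9 of the 10 genes, all but CCL2. They are shown for 4 genes whose levels moved in unlike ways with dose, in lower case with capitals for matches, on either strand, to 3 motifs: the kappaB-type motif GGNNTTTCC bound by NF-kB, the AP-1 motif TGANTCA and the TATA box TATAAA. The windows are chr4:73740319-73740568 on the plus strand, chr4:74099196-74099445 on the minus strand, chr7:22726950-22727199 on the plus strand and chr10:44385098-44385347 on the minus strand.
CXCL8: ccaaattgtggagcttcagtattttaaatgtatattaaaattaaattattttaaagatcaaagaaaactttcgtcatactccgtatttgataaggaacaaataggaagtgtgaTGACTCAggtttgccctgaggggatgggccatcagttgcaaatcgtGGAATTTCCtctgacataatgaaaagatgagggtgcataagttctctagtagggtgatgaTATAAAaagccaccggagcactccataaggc
CXCL2: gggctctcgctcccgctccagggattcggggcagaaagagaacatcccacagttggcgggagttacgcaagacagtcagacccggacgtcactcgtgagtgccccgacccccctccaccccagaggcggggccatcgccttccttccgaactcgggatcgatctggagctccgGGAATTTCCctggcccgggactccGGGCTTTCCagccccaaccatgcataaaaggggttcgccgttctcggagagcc
IL6: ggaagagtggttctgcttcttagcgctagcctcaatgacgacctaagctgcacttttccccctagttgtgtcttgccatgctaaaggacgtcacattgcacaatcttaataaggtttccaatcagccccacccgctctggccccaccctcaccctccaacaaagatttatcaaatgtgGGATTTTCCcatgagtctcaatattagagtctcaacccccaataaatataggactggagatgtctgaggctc
CXCL12: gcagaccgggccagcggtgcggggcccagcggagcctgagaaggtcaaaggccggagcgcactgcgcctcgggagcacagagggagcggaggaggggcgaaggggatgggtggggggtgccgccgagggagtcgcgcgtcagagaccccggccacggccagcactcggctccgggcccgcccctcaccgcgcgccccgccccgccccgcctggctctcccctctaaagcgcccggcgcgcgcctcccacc

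The CXCL8 window held an AP-1 match from -137 to -131, a kappaB-type match from -91 to -83 and a TATA box close to the start. IL6 held 1 kappaB-type match, and CXCL2 held 2, as did CXCL1 and CXCL3. The CXCL12 window, rich in G and C, held none of the 3 motifs. Over all members, the kappaB-type motif was found in 7 of 9 windows (CXCL8, CXCL1, CXCL2, CXCL3, CXCL5, CXCL6 and IL6), against 5.48% of the 35116 promoters in the table. The AP-1 motif was found in CXCL8 and CCL7 (6.57% of all promoters) and the TATA box in the same 2 genes (10.7%). No member's window held the antioxidant response element TGACNNNGC bound by NRF2 (10.9% of all promoters), the heat shock element GAANNTTC (5.78%) or the ATF4-C/EBP element TGATGNAA (3.14%). That says only that these letters are absent from these windows.

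**Figure D1:**
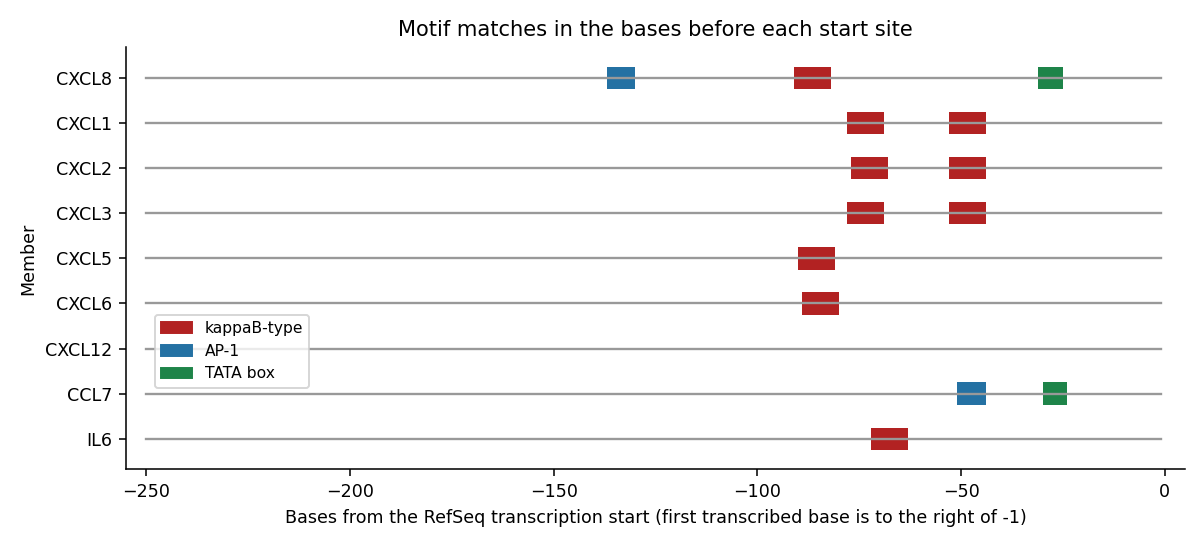
Motif matches in the 250 bases before the RefSeq start of 9 members. The horizontal axis is the distance from the start in bases and each coloured block is a match to the kappaB-type, AP-1 or TATA box motif. The 7 genes with a kappaB-type block carry it within the same stretch before the start, and CXCL12 carries no block.

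The windows also show how close some members are to each other. CXCL5 and CXCL6 were identical at 85.3% of aligned positions, CXCL1 and CXCL3 at 81.4%, CXCL2 and CXCL3 at 73.3% and CXCL1 and CXCL2 at 71.4%. Their transcripts share sequence too: 13% of the 31-base words of CXCL1 and 13.6% of those of CXCL2 occur in CXCL2 and CXCL3 respectively, so counts of CXCL1, CXCL2 and CXCL3 may be split between these genes and are uncertain at the level of the single gene. CXCL5 shared 1.87% of its words with CXCL6. CXCL8 shared none with the other members.

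CXCL8 (ENSG00000169429; GRCh38 chromosome 4, 73740506 to 73743716, plus strand), the main neutrophil chemokine, was silent in vehicle and appeared at 1 dose above all others. Its raw count was 0 in all 32 DMSO wells, in all 4 wells at 0.0005 µM and in all 4 at 0.014 µM. In replicate order 1 to 4 it was 0, 2, 0 and 0 at 0.002 µM and 0, 0, 0 and 1 at 0.005 µM. At 0.04 µM the counts were 0, 0, 28 and 0, and at 0.12 µM they were 21, 0, 44 and 9. Up to 0.12 µM CXCL8 was therefore scattered, with at least 1 well at 0 in every group. At 0.37 µM every well held it, with 605, 727, 796 and 758 counts. At 1.11 µM the counts were 0, 0, 0 and 33, and at 3.33 µM and 10 µM all 8 wells were at 0.

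At 0.37 µM CXCL8 stood at 77 ± 5.48 CPM (SD, n = 4) against 0 in DMSO. Measured against the floor of 3 counts per DMSO well this was at least 163-fold higher, with an adjusted p of 3.92e-13 (edgeR quasi-likelihood test, Benjamini-Hochberg adjustment over 14259 genes), and the lowest treated well lay above every DMSO well. The call held in all 11 alternative settings, with adjusted p between 2.31e-13 and 0.018. CXCL8 was 1 of 2 members called higher at that dose, CXCL2 being the other, while CXCL12 and CCL2 were called lower, against 24.8% of all genes called (11.2% higher and 13.6% lower). CXCL8 and CXCL2 entered the test with the help of treated wells, which favours higher calls. The tally is therefore not a like-for-like comparison.

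At the doses to either side CXCL8 calls rested on few wells. At 0.12 µM its level was 2.41 CPM, at least 5.1-fold higher than DMSO (adjusted p = 2.77e-06, edgeR), in 3 of 4 wells, and CXCL8, CXCL3 and CXCL12 were the 3 members called there, against 2.33% of all genes (1.31% higher and 1.02% lower). Against the row-matched controls, all 4 of which were also at 0, the adjusted p was 0.23, and by the DESeq2 Wald test it was 0.492. The treated wells and the 0 in the controls are the same in these fits. At 0.04 µM CXCL8 was the only member called (adjusted p = 0.000453, edgeR; 0.792% of all genes were called, 0.603% higher), and without replicate 3, its 1 well with counts, the adjusted p was 1. At 1.11 µM the call (adjusted p = 1.01e-07, edgeR) likewise rested on replicate 4 alone, without which the adjusted p was 1. CXCL8 and CXCL3 entered the test with the help of treated wells, so the tallies at 0.04 and 0.12 µM are not like for like.

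The wells at 1.11 µM were shallower than those at 0.37 µM. At the 0.37 µM level, the depth of the 1.11 µM wells would give 91.7 to 113 CXCL8 counts per well, where 0, 0, 0 and 33 were counted. At 3.33 µM the same level would give 11.8 to 16.1 counts per well and at 10 µM 4.39 to 5.72, where every well had 0. The 10 µM numbers use TMM factors of 1.89 to 2.22 and would be lower with the DESeq2 size factors, 1.09 to 1.26. They lie near the floor of 3 counts, so the 0 counts at 10 µM do not show a fall. Between neighbouring doses, CXCL8 was higher at 0.37 µM than at 0.12 µM by 4.98 ± 1.48 on the log2 scale (SE; adjusted p = 0.0313, edgeR), with no overlap of wells, although this call was lost in 8 of 14 alternatives. From 0.37 to 1.11 µM it fell by 3.75 ± 1.42 on the log2 scale (adjusted p = 0.0495, edgeR), a call lost in 10 of 14 alternatives. That value rests on the 1 well with 33 counts: without it, replicate 4, the 1.11 µM group was at 0, the fitted log2 difference was -11.77, which is no measure of size against a group at 0, and the adjusted p was 0.00109. The wells of the 0.37 and 1.11 µM groups did not overlap.

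**Figure D2:**
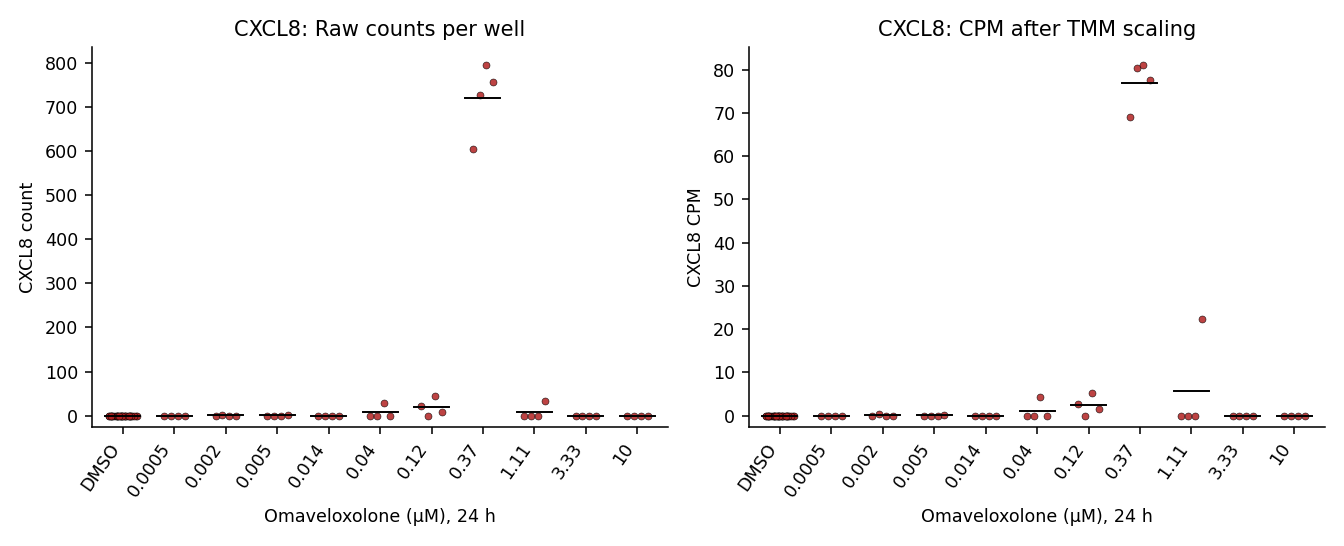
CXCL8 in each well by dose, as raw counts (left) and as CPM after TMM scaling (right). Points are wells (32 for DMSO, 4 for each dose) and horizontal lines are group means. The 4 wells at 0.37 µM lie at 605 to 796 counts, above every other well, the next of which holds 44.

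CXCL1, CXCL2, CXCL3, CXCL5 and CXCL6, the other CXCR2 ligands on chromosome 4, did not share the CXCL8 pattern of 4 high wells at 0.37 µM. None was called at 0.0005 to 0.014 µM, where 0.00701%, 0.0561%, 0.0771% and 0.217% of all genes were called in order of dose. Their highest counts were scattered over single wells of many doses. CXCL1, CXCL2 and CXCL3 were called higher at 1.11 µM, and CXCL5 and CXCL6 at no dose.

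CXCL1 (ENSG00000163739) had 0 to 46 counts in DMSO, with a median of 3 and 6 of 32 wells at 0 (1.7 ± 2.47 CPM, SD). At 0.0005 µM its counts were 17, 20, 75 and 37 and at 0.005 µM they were 39, 68, 55 and 0, with no call at either dose (adjusted p = 1 in both, edgeR). At 0.37 µM, the dose of the CXCL8 peak, CXCL1 counts were 8, 13, 3 and 10, inside the DMSO range. At 1.11 µM they were 1, 34, 6 and 11, which at that lower depth is 9.66 CPM, higher than DMSO by 2.49 ± 0.87 on the log2 scale (SE; adjusted p = 0.0277, edgeR). Without replicate 2 the adjusted p was 0.384, and against the row-matched controls it was 0.235.

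CXCL2 (ENSG00000081041) was at 0 in 25 of 32 DMSO wells and reached 27. At 0.37 µM its counts were 68, 115, 6 and 0, so both wells of row K were above every DMSO well and both wells of row L were within the DMSO range. The level was 5.27 CPM against 0.25 CPM in DMSO, a log2 difference of 4.29 ± 1.09 (SE; adjusted p = 0.00167, edgeR). Without replicate 2 the adjusted p was 0.0564, against the row-matched controls it was 0.351, and by the DESeq2 Wald test 0.11. At 1.11 µM the counts were 1, 15, 3 and 10 (log2 difference 4.3 ± 1.14, adjusted p = 0.00317, edgeR), a call lost against the row-matched controls (adjusted p = 0.345).

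CXCL3 (ENSG00000163734) was also at 0 in 25 of 32 DMSO wells, with at most 18 counts. Its counts were 6, 45, 0 and 0 at 0.002 µM, 0, 6, 0 and 55 at 0.005 µM and 19, 70, 0 and 0 at 0.12 µM. The last of these was called higher (log2 difference 3.82 ± 1.11, adjusted p = 0.0445, edgeR) and lost in 8 of 11 alternatives. At 0.37 µM the counts were 0, 23, 0 and 2. At 1.11 µM they were 1, 0, 31 and 28, both high wells being in row L, with a log2 difference of 5.63 ± 1.08 (adjusted p = 5.19e-05, edgeR). Against the row-matched controls the adjusted p was 0.0607.

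CXCL5 (ENSG00000163735) was at 0 in 19 of 32 DMSO wells and reached 74, and CXCL6 (ENSG00000124875) was at 0 in 14 with a median of 2 and a highest count of 90. At 0.37 µM CXCL5 had 40, 5, 8 and 0 counts (adjusted p = 0.699, edgeR) and CXCL6 had 3, 2, 0 and 8 (adjusted p = 0.262, edgeR). At 1.11 µM CXCL5 had 4, 7, 1 and 3 counts (adjusted p = 0.344, edgeR) and CXCL6 0, 0, 8 and 5 (adjusted p = 0.936, edgeR). The highest CXCL6 counts were at 0.002 µM, with 1, 130, 0 and 117, where the spread between wells exceeded the difference from DMSO (adjusted p = 0.909, edgeR). All 5 of these CXCR2 ligands were at 0 in every well at 3.33 and 10 µM, where the floor lies above their DMSO level. Neither a fall nor a rise that stayed under the floor could be seen at that depth.

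**Figure D3:**
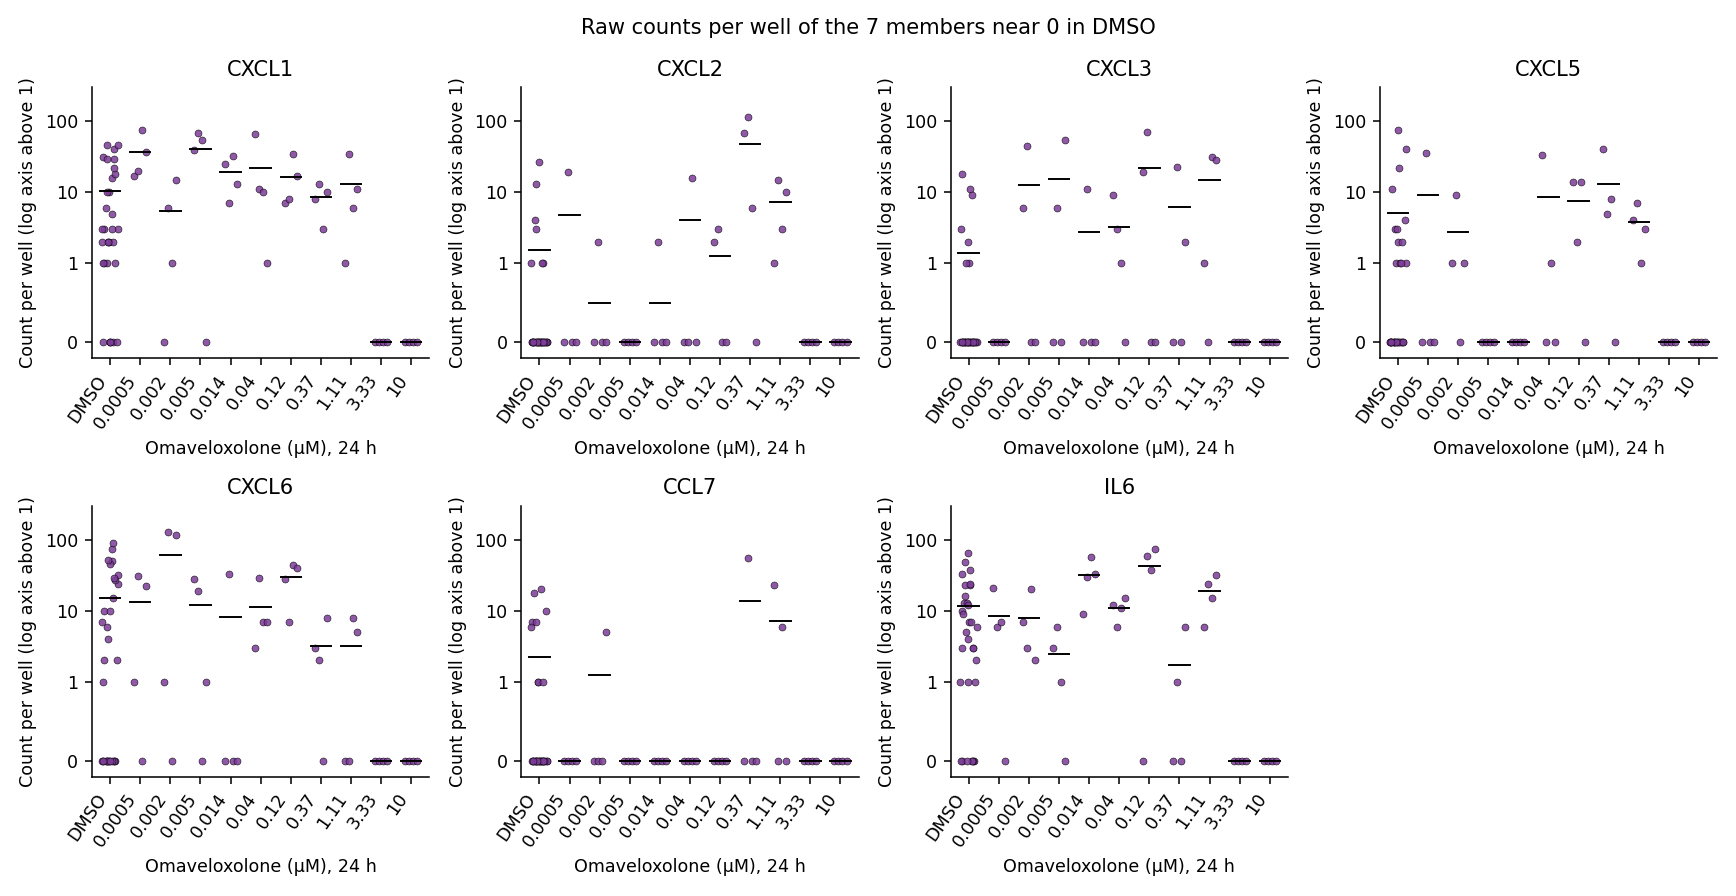
Raw counts per well of the 7 members near 0 in DMSO, by dose, on an axis that is logarithmic above 1 and linear below it. Points are wells and horizontal lines are group means. Single wells of many doses reach 10 to 100 counts, and all wells at 3.33 and 10 µM are at 0.

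CXCL12 (ENSG00000107562; GRCh38 chromosome 10, 44370165 to 44386493, minus strand) went the other way: it was plentiful in vehicle, was lower at 0.12 and 0.37 µM, and at 1.11 µM its share of the library lay again in the DMSO range. Its DMSO wells held 6412 to 19148 counts with a median of 12208.5, or 1858 ± 297 CPM (SD, n = 32). From 0.0005 to 0.04 µM the mean level was 1893, 1712, 1610, 1443 and 1204 CPM in order of dose. None of these was called, and at 0.04 µM the log2 difference was -0.63 with an adjusted p of 0.289 (edgeR). Fitted without the shallow wells of 3.33 and 10 µM, the 0.04 µM call had an adjusted p of 0.000415.

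At 0.12 µM CXCL12 had 6841, 4674, 9383 and 5264 counts, or 908 ± 179 CPM. It was lower than in DMSO by a log2 difference of -1.03 ± 0.23 (SE; adjusted p = 0.00181, edgeR). The row-matched controls were at 1542 ± 37.4 CPM, below the DMSO mean, and against these 4 wells alone the log2 difference at 0.12 µM was -0.77 ± 0.34 (adjusted p = 0.792). The DMSO wells also differed between columns, 1992 CPM in column 23 against 1724 CPM in column 2, a log2 difference of 0.2 ± 0.07 (adjusted p = 0.0828, edgeR). Of the 2 members tested between columns 0 were called, against 6.1% of all genes tested there.

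At 0.37 µM CXCL12 had 3438, 2554, 3108 and 3117 counts, or 327 ± 46.6 CPM, and no treated well reached the lowest DMSO well. The log2 difference from DMSO was -2.5 ± 0.26 (adjusted p = 3.92e-13, edgeR), and from 0.12 µM it was -1.47 ± 0.28 (adjusted p = 9.37e-05, edgeR). At 1.11 µM CXCL12 had 2974, 3243, 2810 and 2726 counts, which at the lower depth of these wells is 2232 ± 258 CPM (log2 difference from DMSO 0.26 ± 0.2, adjusted p = 0.341, edgeR). From 0.37 to 1.11 µM the rise in CPM was 2.77 ± 0.29 on the log2 scale (adjusted p = 3.48e-12, edgeR), while the raw counts of these groups were alike. This rise is thus one of share among all transcripts.

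At 3.33 µM the CXCL12 wells divided by plate row. Replicates 1 and 2 in row K had 62 and 16 counts, and replicates 3 and 4 in row L had 345 and 304, together 963 ± 875 CPM. The group was called lower than DMSO (log2 difference -0.94 ± 0.23, adjusted p = 0.000763, edgeR), though not against the row-matched controls (log2 difference -0.67 ± 0.35, adjusted p = 0.144). Single wells moved this value: it was -0.57 without replicate 2 (adjusted p = 0.0192) and -1.52 without replicate 3 (adjusted p = 2.09e-06). At 10 µM 5, 25, 20 and 13 counts gave 243 ± 126 CPM (log2 difference -2.92 ± 0.32, adjusted p = 6.77e-12, edgeR). CXCL12 and CCL2 were the 2 members called at 3.33 µM and at 10 µM, all lower, against 40.2% of all genes called at 3.33 µM (32.9% lower) and 35.2% at 10 µM (31.8% lower). The median gene's fitted log2 difference from DMSO was -2.32 at 3.33 µM and -5.51 at 10 µM, where 4173 to 5288 and 2205 to 2917 genes had counts in a well, so these medians are no yardstick for an abundant gene.

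CCL2 (ENSG00000108691; GRCh38 chromosome 17, 34255218 to 34257203, plus strand), the main monocyte chemokine, was the other member well expressed in vehicle. DMSO wells held 257 to 1205 counts with a median of 511.5, or 86.2 ± 30.8 CPM. At 0.12 µM its level was 114 CPM (adjusted p = 0.63, edgeR). At 0.37 µM its counts of 282, 494, 220 and 160 gave 31.4 ± 16.8 CPM, lower than DMSO by a log2 difference of -1.46 ± 0.33 (SE; adjusted p = 0.000426, edgeR). Against the row-matched controls the log2 difference was -1.37 and the adjusted p 0.0619.

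CCL2 therefore fell at the dose where CXCL8 was highest. From 0.12 to 0.37 µM CCL2 differed by -1.86 ± 0.4 on the log2 scale (adjusted p = 0.000766, edgeR). At 1.11 µM it had 219, 49, 83 and 268 counts, or 114 ± 72.2 CPM, a log2 difference from DMSO of 0.41 (adjusted p = 0.305, edgeR) and from 0.37 µM of 1.87 ± 0.41 (adjusted p = 0.000282, edgeR). At 3.33 µM its counts were 0, 17, 0 and 8 (log2 difference from DMSO -1.27 ± 0.46, adjusted p = 0.0229, edgeR), a call lost in 5 of 10 alternatives. Without replicate 2, the well with 17 counts, the log2 difference was -2.63 (adjusted p = 0.000399). All 4 wells at 10 µM were at 0 and CCL2 was called lower (adjusted p = 0.000205, edgeR), a call kept in all 10 alternatives. Measured against the floor this was at least 1.82-fold lower than DMSO, a bound that covers counting error only. It also rests on the TMM factors of these wells, 1.89 to 2.22. DESeq2 size factors, 1.09 to 1.26 for the same wells, give a higher floor and a smaller bound.

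CCL7 (ENSG00000108688), a monocyte chemokine that lies beside CCL2 on chromosome 17, was at 0 in 23 of 32 DMSO wells and reached 20. It was detected at 3 doses. At 0.002 µM the counts were 0, 0, 0 and 5, at 0.37 µM 0, 55, 0 and 0 and at 1.11 µM 23, 0, 6 and 0. The 1.11 µM group was called higher (log2 difference 3.97 ± 1.23, adjusted p = 0.0135, edgeR), and without replicate 1 the adjusted p was 0.353. CCL7 counts thus did not follow those of CCL2.

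**Figure D4:**
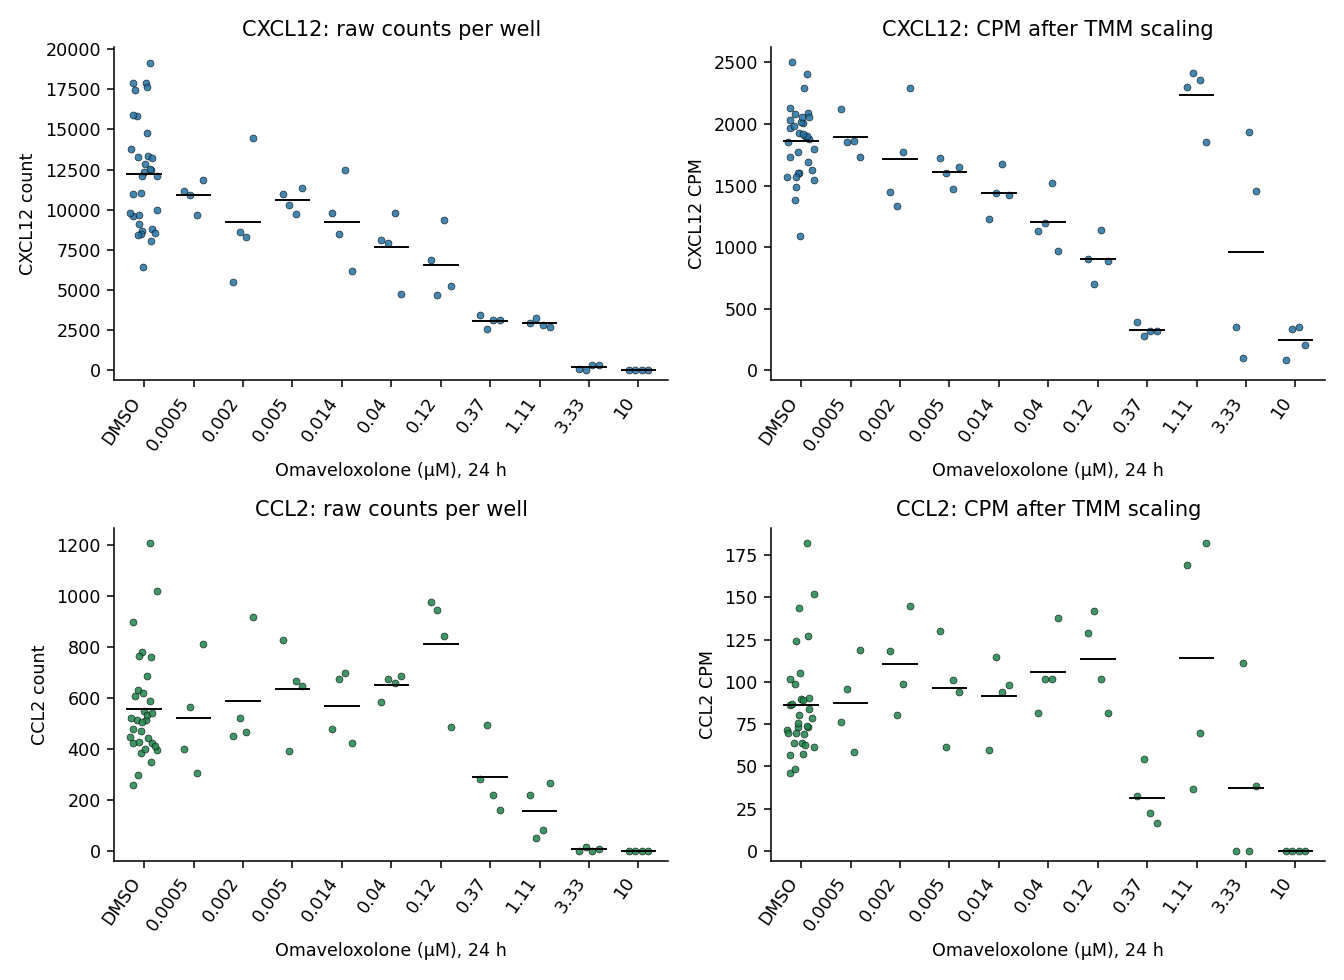
CXCL12 (top) and CCL2 (bottom) in each well by dose, as raw counts (left) and as CPM after TMM scaling (right). Points are wells and horizontal lines are group means. In CPM both genes have their lowest mean below 3.33 µM at 0.37 µM (327 and 31.4 CPM) and are at 2232 and 114 CPM at 1.11 µM, while raw counts at 1.11 µM are no higher than at 0.37 µM.

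IL6 (ENSG00000136244; GRCh38 chromosome 7, 22725884 to 22732002, plus strand), the cytokine of the group, was low and scattered in vehicle, near 0 at 0.37 µM and higher at 1.11 µM. DMSO wells held 0 to 66 counts with a median of 5.5, and 7 of 32 were at 0 (1.77 ± 2.6 CPM). At 0.014 µM the counts were 9, 30, 57 and 33 (adjusted p = 0.901, edgeR), and at 0.12 µM 0, 59, 38 and 74 (adjusted p = 0.36, edgeR). At 0.37 µM they were 0, 1, 0 and 6, with a log2 difference from DMSO of -3.13 ± 1.35 that did not pass the threshold (adjusted p = 0.0806, edgeR). At 1.11 µM all 4 wells held IL6, with 6, 24, 15 and 32 counts.

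The 1.11 µM level of IL6 was 14.2 ± 7.4 CPM, higher than DMSO by 2.99 ± 0.83 on the log2 scale (SE; adjusted p = 0.00512, edgeR). Its raw counts there lay within the DMSO range of 0 to 66, with a median of 19.5 against 5.5 in DMSO. The size of the rise in CPM thus rests in part on the lower depth of these wells. Against the row-matched controls the log2 difference was 3.31 ± 1.31 and the adjusted p 0.117. The difference between 0.37 and 1.11 µM, 6.12 ± 1.71 on the log2 scale (adjusted p = 0.00478, edgeR), was kept in all 14 alternatives. From 0.12 to 0.37 µM IL6 fell by 4.98 ± 1.63 (adjusted p = 0.0411, edgeR), a call lost in 9 of 14. At 3.33 and 10 µM all wells were at 0, which at that depth allows a level above that of DMSO.

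At 1.11 µM 6 members were called higher (CXCL8, CXCL1, CXCL2, CXCL3, CCL7 and IL6) and 0 lower, against 23% of all genes called (9.77% higher and 13.2% lower). Of these, CXCL8 was present in 1 of 4 wells and CCL7 in 2. CXCL8, CXCL2, CXCL3 and CCL7 entered the test with the help of treated wells, which favours higher calls. This tally, and those between doses that count CXCL8, are therefore not like-for-like comparisons with the shares of all genes. Against the row-matched controls 1 of 9 tested members was called, CXCL8, whose counts at this dose lay in 1 well alone. Directly between 0.37 and 1.11 µM, CXCL12, CCL2 and IL6 were called higher at 1.11 µM and CXCL8 lower, against 25.4% of all genes (12.1% higher and 13.4% lower). Between 0.12 and 0.37 µM CXCL8 was called higher and CXCL12, CCL2 and IL6 lower, against 8.11% of all genes (2.51% higher and 5.6% lower). Between 0.04 and 0.12 µM 0 members were called, against 0.014% of all genes, and from 1.11 to 3.33 µM CXCL12 (log2 difference -1.2 ± 0.29, adjusted p = 0.000576, edgeR) and CCL2 (log2 difference -1.68 ± 0.53, adjusted p = 0.00934, edgeR; -3.03 without replicate 2 of 3.33 µM) were lower, against 34.8% (27.6% lower). Scaled by DESeq2 size factors, the median log2 difference of all genes between 0.37 µM and DMSO was 0.11, where TMM gave -0.14, and every member called there kept its direction.

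The counts of the lists that follow are to be read against the shares of all genes called, 2.33% at 0.12 µM, 24.8% at 0.37 µM and 23% at 1.11 µM. At 1.11 µM a rise in CPM is a rise in share of a shallower library and need not be one in raw counts. Among chemokine and IL-6 receptors and scavengers, not all of which bind the members, of 14 listed 10 were measured and 6 tested. The share called was 16.7% at 0.37 µM and 33.3% at 1.11 µM, and at 0.12 µM 0 passed. At 0.37 µM 1 fell, ACKR4, a scavenger of CCR7 and CCR9 ligands, from 206 CPM in DMSO to 4.75 CPM, with 55, 66, 20 and 33 counts (log2 difference -5.44 ± 0.79, adjusted p = 6.75e-08, edgeR), a call kept in every alternative. At 1.11 µM 2 rose. ACKR3, which takes up CXCL12, had a level of 64.5 CPM against 32.9 CPM in DMSO (log2 difference 0.97 ± 0.24, adjusted p = 0.00177, edgeR), lost against the row-matched controls (adjusted p = 0.0918). The other was CCR1, named here after its values were seen, with 19, 0, 0 and 13 counts. The median log2 difference over the tested receptors was -0.69 at 0.37 µM and 0.15 at 1.11 µM, against -0.14 and -0.2 over all genes tested.

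Among 21 other chemokines, 17 were measured and 8 tested, of which 25% were called at 0.37 µM and likewise at 1.11 µM, near the shares of all genes. At 0.37 µM CCL26 (eotaxin-3), an attractant of eosinophils, rose from 1.33 to 22.4 CPM, with 145, 321, 136 and 233 counts against 0 to 54 in DMSO (log2 difference 4.05 ± 0.77, adjusted p = 2.55e-05, edgeR). It was lost against the row-matched controls (adjusted p = 0.0657). CCL27 was called lower with 0 counts in all 4 wells (adjusted p = 0.0475, edgeR), from a DMSO level of 0.446 CPM, which is under the floor. At 1.11 µM CCL28 was called lower (4.04 to 0.186 CPM, adjusted p = 0.0339, edgeR), and CCL13, named after its values were seen, was called higher on 7, 8, 0 and 0 counts. The median log2 difference of the 8 was -1.23 at 0.37 µM and -2.16 at 1.11 µM. Genes without counts enter these medians, which are therefore a poor measure of size. Of the 17 measured, 8 had no counts in the 0.37 µM wells and 11 had none in the 1.11 µM wells. The list summed to between 4.64 and 35.4 CPM per DMSO well. Sums in treated wells overlapped this range: 19.4 to 47.6 CPM for 0.37 µM, CCL26 included, and 6.71 to 30.1 CPM for 1.11 µM.

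Of the NF-kB pathway and its targets (30 genes, 29 tested), 0 passed at 0.12 µM, 2 rose and 5 fell at 0.37 µM, and 6 rose and 4 fell at 1.11 µM. That is 24.1% at 0.37 µM, near the share of all genes, and 34.5% at 1.11 µM. The list medians were 0.02 at 0.37 µM and -0.05 at 1.11 µM. At 0.37 µM, where CXCL8 was highest, NFKBIB, an inhibitor that holds NF-kB in the cytoplasm, rose from 9.08 to 41.7 CPM. TNFAIP8, an inhibitor of apoptosis, fell from 104 to 11 CPM, BCL3, a nuclear NF-kB cofactor, from 96.4 to 15.2 CPM, and TNFAIP2 from 51.9 to 12.6 CPM, all 4 calls being kept in every alternative. At 1.11 µM, where IL6 was higher, PTGS2 (cyclooxygenase-2) rose from 2.07 to 57.7 CPM, NFKBIZ, a nuclear cofactor of IL6 transcription, from 3.17 to 63.4 CPM and IER3, an early response gene, from 8.38 to 81.7 CPM. In the same wells TRAF2, an adaptor of TNF receptors, was called lower with 0 counts in all 4 wells against 2.54 CPM in DMSO (adjusted p = 0.00106, edgeR; 0.0719 against the row-matched controls). NFKBIE and TNIP1, both inhibitors in the pathway and named after their values were seen, fell from 7.96 to 2.18 CPM and from 48.3 to 21 CPM. NFKBIE had 4, 3, 0 and 5 counts, near the floor, and TNIP1 had 45 and 61 in row K and 2 and 3 in row L. In the same wells the inhibitor NFKBIB rose from 9.08 to 21.5 CPM (adjusted p = 0.0384, edgeR). SDC4 rose from 53.3 to 149 CPM and TNFAIP6 from 11.1 to 86.1 CPM. These rises were also named after their values were seen. NFKBIA, the feedback inhibitor and classical NF-kB target, fell at both doses (log2 difference -0.97 ± 0.22 and -0.92 ± 0.23, adjusted p = 0.00035 and 0.00142, edgeR). It was named after its values were seen.

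Of the upstream receptors and adaptors of IL-1, TNF and Toll-like receptor signalling (25 genes, 21 tested), 0 passed at 0.12 µM, 2 rose and 1 fell at 0.37 µM, and 1 rose and 2 fell at 1.11 µM. That is 14.3% at either dose, below the shares of all genes. The kinases RIPK2 (28.7 to 88.8 CPM) and IRAK1 (87.8 to 190 CPM) rose at 0.37 µM and kept the call in every alternative. TNFRSF1A, the main TNF receptor, fell from 140 to 70.3 CPM there, which was lost against the row-matched controls (adjusted p = 0.167). At 1.11 µM the IL-1 receptor gene IL1R1 fell from 325 to 124 CPM and was lost in the same way (adjusted p = 0.155), as was the adaptor TAB2 (adjusted p = 0.326). IRAK2, named after its values were seen, was called higher on 92, 71, 0 and 11 counts.

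The IL-6 family and STAT3 list (17 genes, 16 tested) had 0 calls at 0.12 µM, 4 lower at 0.37 µM (25%, near the share of all genes) and 4 higher and 2 lower at 1.11 µM (37.5%). SOCS3 is the STAT3-induced feedback inhibitor of gp130 signalling. Its level was 63.9 ± 15.8 CPM in DMSO, 15.6 ± 6.5 CPM at 0.37 µM (log2 difference -2.03 ± 0.27, adjusted p = 4.46e-09, edgeR) and 171 ± 37.9 CPM at 1.11 µM (log2 difference 1.42 ± 0.2, adjusted p = 7.24e-08, edgeR). Both SOCS3 calls were kept in every alternative. SOCS3 raw counts at 1.11 µM were 199, 196, 271 and 232, against a DMSO median of 412.5. That rise is thus one of share among all transcripts. SOCS1, PIM1 and JAK1 were also called lower at 0.37 µM, and each was lost against the row-matched controls (adjusted p = 0.258, 0.123 and 0.242). JAK1 and PIM3 were called lower at 1.11 µM too, from 392 to 236 CPM and from 57.7 to 37.8 CPM, and both were lost against the row-matched controls (adjusted p = 0.344 and 0.364). The gp130 ligand IL11 was called higher at 1.11 µM on 25, 2, 1 and 4 counts, and without replicate 1 the adjusted p was 0.54.

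Regulators of AU-rich mRNA, the class of transcript to which CXCL8 and IL6 belong, included DUSP1, which had the lowest adjusted p of the 7 lists at 1.11 µM. Of 15 genes, all tested, 0 passed at 0.12 µM, 3 rose and 1 fell at 0.37 µM (26.7%, near the share of all genes), and 4 rose and 2 fell at 1.11 µM (40%). DUSP1, the phosphatase that switches off p38 signalling, rose from 88.1 ± 21.3 CPM in DMSO to 225 ± 109 CPM at 0.37 µM and 4005 ± 83.2 CPM at 1.11 µM, where its counts were 5033, 5479, 4803 and 5910 (log2 difference 5.51 ± 0.2, adjusted p = 4.11e-38, edgeR). ZFP36 (tristetraprolin), which binds AU-rich elements and speeds decay, rose from 225 ± 27.6 to 1272 ± 130 CPM at 1.11 µM (log2 difference 2.5 ± 0.16, adjusted p = 3.27e-22, edgeR). Both 1.11 µM calls were kept in every alternative. The DUSP1 raw counts there lay above the DMSO range of 292 to 885. Those of ZFP36, 1510, 1708, 1731 and 1757, lay within its DMSO range of 999 to 1850. All 4 ZFP36 counts were above its DMSO median of 1474.5, and the size of its rise in CPM rests in part on the lower depth of these wells. At 0.37 µM the smaller DUSP1 and ZFP36 calls (log2 difference 1.35 ± 0.24 and 0.55 ± 0.19) were lost against the row-matched controls (adjusted p = 0.0688 and 0.593). MAPKAPK2, the p38-activated kinase that inhibits ZFP36, went from 76 to 127 CPM at 0.37 µM (adjusted p = 0.00124, edgeR) and was lost in the same way (adjusted p = 0.441). Other decay factors were called lower. ZFP36L2, a relative of ZFP36, fell from 420 CPM in DMSO to 244 CPM at 0.37 µM (adjusted p = 0.0209, edgeR) and to 192 CPM at 1.11 µM (adjusted p = 0.00139, edgeR), and RC3H2, a roquin protein, fell from 24.8 to 8.65 CPM at 1.11 µM (adjusted p = 0.028, edgeR). All 3 calls were lost against the row-matched controls (adjusted p = 0.365, 0.154 and 0.106).

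Colony-stimulating factors and other secreted cytokines (15 listed, 12 measured and tested) had 1 call at 0.12 µM, lower, and 3 higher and 3 lower at each of 0.37 and 1.11 µM, 50% of the list at either dose. GDF15, a stress-induced cytokine, rose from 10.2 CPM in DMSO to 101 CPM at 0.37 µM and 56.2 CPM at 1.11 µM, both kept in every alternative. TSLP rose at 0.37 µM from 1.14 to 12.8 CPM, with 90, 178, 84 and 123 counts, and was lost against the row-matched controls (adjusted p = 0.0567). The apoptosis ligand TNFSF10 fell from 8.81 CPM to 0.167 CPM at 0.12 µM and 0.322 CPM at 0.37 µM, both lost in the same way (adjusted p = 0.286 and 0.073). The cytokine MIF fell at 1.11 µM from 88.2 to 9.24 CPM, a call kept in every alternative, and IL32 from 10.6 to 1.61 CPM (adjusted p = 8.74e-05, edgeR). IL32 had 0, 5, 0 and 4 counts there, and with the replicate number as a block its adjusted p was 0.0581. IL34, a ligand of the CSF1 receptor, fell from 2.35 CPM to 0, 1, 0 and 0 counts at 0.37 µM (adjusted p = 0.00182, edgeR) and was called lower with 0 counts in all wells of 1.11 µM (adjusted p = 0.0162, edgeR; 0.0601 against the row-matched controls).

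**Figure D5:**
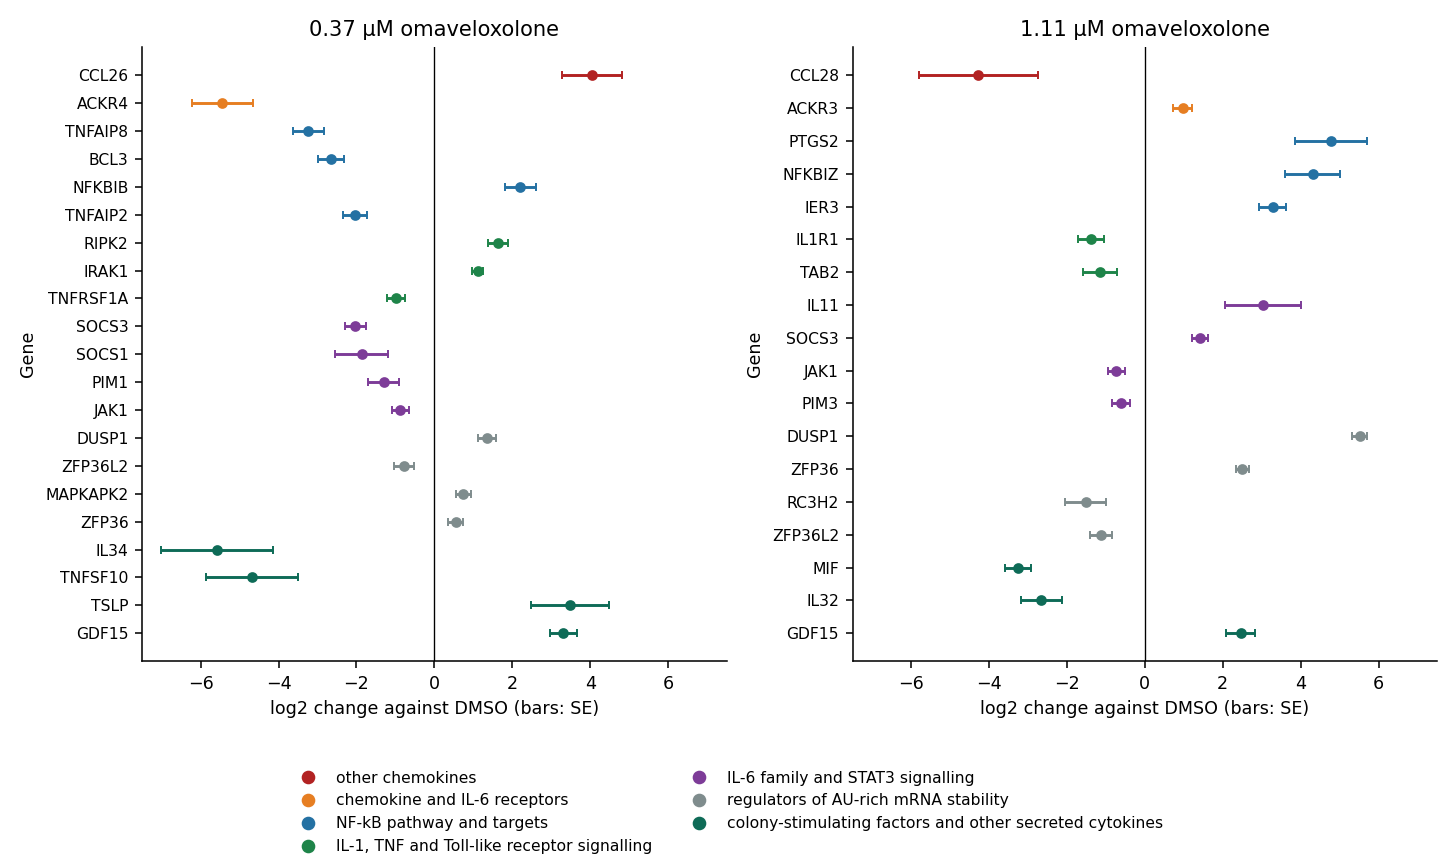
Log2 difference from DMSO of the genes named by rule in 7 lists, at 0.37 µM (left) and 1.11 µM (right). Points are fitted differences, bars are standard errors and colours mark the lists; each value rests on 4 treated and 32 DMSO wells. SOCS3 lies at -2.03 in the left panel and 1.42 in the right, and DUSP1 at 1.35 and 5.51.

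The genes whose levels followed each of 4 members most closely were found by Pearson's r over 9 group means of log2 CPM, from DMSO to 1.11 µM. These means share the same wells and depths, and r is a description. CXCL8 was followed by PEA15 (r = 0.993), TNPO1, SNAPC5, DUSP3 and UBE2D3 (r = 0.984). These values rest largely on 0.37 µM, the 1 dose at which every well held CXCL8. PEA15 went from 181 CPM in DMSO to 475 CPM at 0.37 µM and 222 CPM at 1.11 µM, and DUSP3 from 132 to 621 and 213 CPM. CXCL12 was followed by CLDN11 (r = 0.996; 1603 CPM in DMSO, 225 CPM at 0.37 µM and 1851 CPM at 1.11 µM), SPON2, PTX3, MXRA8 and POLR2A. CCL2 was followed by MGST3 (r = 0.984), SEPTIN8, RPL10A, GLIPR2 and DUT, and IL6 less closely by KLHL38 (r = 0.953), PSPHP1, R3HDM4, MACC1 and TMEM14C (r = 0.919).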

How the data were processed

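Read counts per gene were deposited by the authors as 1 table of whole numbers for 72 wells. Per the submitters' processing notes, kallisto, bustools and the GRCh38 build were used; their versions, the annotation and whether molecular identifiers were collapsed are not given in the sources used here. Identifiers were matched to GENCODE release 29 (23078 of 23170 genes). Genes of the sex chromosome Y and XIST were left out of all steps. Wells were grouped by their titles.

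The test was edgeR 4.0.16 (R 4.3.3): library sizes scaled by TMM, a filterByExpr minimum of 10 counts, and 1 quasi-likelihood fit, robust, of all 72 wells, with Benjamini-Hochberg adjustment over all genes of a comparison and a threshold of 0.05. The shallow wells at 3.33 and 10 µM share that fit. CPM values are after TMM scaling. A fold against a group at 0 was computed from the floor of 3 counts per well; intervals and floors cover counting error only. The procedure was tested on simulated data, with 1 spread for all genes and changes placed only in genes expected at 10 counts or more. That test does not cover the members near 0 in DMSO. Alternatives were DESeq2 1.42.0 size factors, the DESeq2 Wald test, no count filter, row-matched controls only (the 4 DMSO wells sharing the rows of the treated wells), the replicate number as a block, a fit without the wells at 3.33 and 10 µM, the side of the plate as a covariate, and each treated replicate left out. Promoter sequences came from RefSeq, GRCh38.p14.

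The members and lists were chosen with earlier results of these data known. All 10 members are named. Of each other list, up to 4 genes past the threshold at 0.12, 0.37 and 1.11 µM are named, those with the largest change whose 4 wells lie on 1 side of the DMSO median; the genes most like CXCL8, CCL2, IL6 and CXCL12 are the 5 of highest Pearson's r, over log2 CPM with a prior count of 2. The labels' protocol gives 16 DMSO wells per plate, while 32 are deposited.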

Additional observations from a re-analysis of the deposited data

Results flagged for a closer look

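In CXCL1 at 0.04 µM 1 of the 4 wells stood apart from the others: replicate 1 was at 9.1 CPM and the nearest of the other wells at 1.65 CPM, a gap of 0.837 of the whole range of the group. CXCL1 was not called at that dose (adjusted p = 0.91, edgeR). Over the 35 groups of 4 wells that were searched, chance flags about 1 in 20.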

How the results depend on the processing

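All alternatives named here were planned. Over the 384 values of single members under an alternative, 314 kept their direction and their side of the threshold, 67 kept their direction and lost the threshold, 2 lost it with a change of 0 because the well with counts was left out (CXCL8 at 0.04 and 1.11 µM), 1 gained it and 0 turned direction. The number of members called against DMSO was 1, 3, 4, 6, 2 and 2 at the doses from 0.04 to 10 µM in order. By the DESeq2 Wald test it was 0 at 0.04 µM, 1 for 0.12 µM and 3 for 1.11 µM. Against the row-matched controls, which leave 4 DMSO wells, 0 members were called at 0.04 and 0.12 µM, 2 for 0.37 µM, 1 for 1.11 µM and 0 for 3.33 µM. CCL7 did not pass the filter of that fit, so 9 members were tested in it. Fitted without the 3.33 and 10 µM wells the number called was 2 at 0.04 µM. Between DMSO columns it was 1 in place of 0 by the Wald test and with no count filter. The cause was not tested.

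With 1 treated replicate left out, the number called at 0.04, 0.12 and 0.37 µM ranged from 0 to 1, 2 to 3 and 3 to 5. For 1.11, 3.33 and 10 µM it ranged from 5 to 6, 1 to 2 and 2 to 2. It ranged from 2 to 3 between 0.12 and 0.37 µM, 3 to 4 between 0.37 and 1.11 µM and 1 to 2 between 1.11 and 3.33 µM, and was 0 in the comparisons of lower doses.

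With the replicate number as a block, which compares only wells numbered 1 to 4, 0 members were called at 0.04 and 0.12 µM, 2 for 0.37 µM, 3 for 1.11 µM and 1 for 3.33 µM. CCL7 was not tested in that fit either. The numbers do not pair the wells: 2 of 56 pairs had a correlation of deviations over 0.1, and in 14 of 56 cases a well correlated best with its own number. Many of the list genes named by rule lost their call with the block, while others, such as SOCS3 at both doses, kept it. Among those lost were PTGS2, NFKBIZ and IL32 at 1.11 µM (adjusted p = 0.0628, 0.104 and 0.0581, edgeR). CCL26 and TSLP at 0.37 µM were lost too (adjusted p = 0.113 and 0.32, edgeR). At 3.33 and 10 µM depth hides a fall of any member whose DMSO level is under the floor, and any rise that stays under it.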
